A study of Danio rerio with 12 samples.

Results

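Zebrafish embryos that had received a tif1g morpholino and leflunomide together were compared with embryos that had received neither perturbation, at the tailbud stage. The comparison takes 6 of the 12 libraries of the study, 3 per group, and was set by the labels alone. The reference embryos were TU wild type, injected with 1 ng of a control morpholino and kept in DMSO. The doubly treated embryos were also TU, injected with 1 ng of the tif1g morpholino and kept in 7 µM leflunomide from 5.3 to 10 hours post fertilization (hpf). The other 6 libraries hold the single perturbations, tif1g morpholino with DMSO and control morpholino with leflunomide, and served here to place the combined change. Each library was made from whole embryos, 109 to a pool. A morpholino is a transient knockdown and not a mutation, so the embryos keep an intact tif1g gene. The labels do not state that the pools of a group came from separate clutches, so p-values measure the spread between these pools.

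Tif1γ, the product of the gene listed as trim33, is a chromatin-associated member of the tripartite motif family. In zebrafish it is known from the moonshine mutant, which lacks red blood cells, and it is known there to promote transcription elongation by RNA polymerase II in blood progenitors. Leflunomide is a prodrug whose metabolite inhibits dihydroorotate dehydrogenase (DHODH), an enzyme of the inner mitochondrial membrane that makes orotate for pyrimidine nucleotides and passes the electrons to coenzyme Q. The enzyme thereby ties nucleotide supply to the respiratory chain.

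The injected oligonucleotides are shown because they define the groups. Both have 25 bases and are written 5′ to 3′. The capitals in the tif1g morpholino mark the complement of the start codon, which begins at position 22 counted from its 5′ end.
tif1g morpholino: atcttggcctttgttgtccgcCATc
tif1g target, reverse complement: gATGgcggacaacaaaggccaagat
control morpholino: cctcttacctcagttacaatttata
The control morpholino holds no such triplet. An oligonucleotide over the start codon is designed to block translation, so the trim33 transcript does not measure how far the protein was lowered.

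The 12 libraries held between 27574593 and 32088082 counts. Libraries of control morpholino with DMSO held 29845686 to 32088082 and libraries of both treatments 27714933 to 29691037. The first principal component took 35.8% of the variance and separated the morpholinos. Replicate 1 stood apart from replicates 2 and 3 in all groups on the third component, which took 10.2%. Markers of gastrula tissues were read in every library, among them tbxta of the chordamesoderm at 83.2 to 110 CPM (counts scaled to the library total after TMM adjustment, as for all levels here) and krt4 of the enveloping layer at 5750 to 6600 CPM in the 6 libraries compared. Of the defining genes of tissues that form later, lyz of granulocytes, ins of beta cells, cmlc1 and myl7 of the heart and mbpa of glia had at most 5 counts in any library. The fast muscle gene myhz1.1 had at most 11 counts, the photoreceptor genes listed as rho at most 22 and the globin gene hbae3 at most 31. The yolk syncytial layer marker mxtx2 had 1 to 11 counts, although apoa1b of the same layer was read at 553 to 847 CPM. In pooled whole embryos, fewer cells of a type and less RNA per cell cannot be told apart.

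The trim33 transcript itself rose. It was at 72.9, 80.6 and 71.2 CPM in replicates 1, 2 and 3 of control morpholino with DMSO and at 433, 418 and 417 CPM with both treatments. The groups did not overlap, and the rise was 5.64-fold (n = 3 against 3, SE 0.06 on the log2 scale, adjusted p = 1.97e-15 quasi-likelihood test in edgeR, adjusted after Benjamini and Hochberg, as for all adjusted p-values here). The log2 change was 2.34 ± 0.06 with the tif1g morpholino alone and 0.12 ± 0.06, which did not pass the test, with leflunomide alone. The transcript of dhodh, the target of the drug, was at 24.5, 21.2 and 24.5 CPM in the controls and at 14.2, 13.3 and 15.1 CPM with both treatments. Every treated library was below every control, and dhodh fell by 0.72 ± 0.10 on the log2 scale (adjusted p = 2.26e-05). The erythroid factor gata1a had 3 to 14 counts in any of the 12 libraries and was not tested. The hematopoietic factor tal1 was at 5.15, 1.48 and 0.829 CPM in the controls and at 0.948, 1.24 and 0.420 CPM with both treatments, which overlap. Its log2 change of -1.51 ± 0.84 did not pass the test (adjusted p = 0.199). With the replicate number as a block it did, with a log2 change of -1.33 ± 0.39 (adjusted p = 0.00838). That call rested on replicate 1, the pair with the highest control: the blocked fit without every library of replicate 1 gave -0.55 for tal1 (adjusted p = 0.365).

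Of 21400 genes tested, 7697 differed between the embryos with both treatments and the untreated controls at an adjusted p under 0.05, which is 36% of the genes. Of these, 3694 rose, 17.3% of the genes tested, and 4003 fell, 18.7%. Rises were larger than falls. A change of 2-fold or more was reached by 890 of the genes that rose and 434 of those that fell, and a change of 4-fold or more by 171 and 41. The median size was 0.62 on the log2 scale among rises and 0.46 among falls. The direction was the same in all 3 replicate numbers for 7639 of the called genes (99.2%), and the libraries of the groups did not overlap for 7452 (96.8%). Both shares are of genes called from these same libraries, which favours such genes, so they are no independent check of the calls. The same shares over all genes tested were not computed, so there is no base to read them against. The balance of rises and falls depended on the scaling. When libraries were scaled by their totals alone, 5322 genes rose and 2644 fell, and the median log2 change of all genes moved from 0.01 to 0.13, a shift of 0.119.

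The direction also varied with the level of a gene. Among 4444 genes with a mean log2 CPM below 0, 472 rose and 123 fell, and among the 701 genes with one above 8, 87 rose and 356 fell. The standard error had a median of 0.501 (log2) in the first class and of 0.056 in the second, so small changes could be called only among abundant transcripts. Counts on genes too low to test made up 0.0628% to 0.0675% of each library of both treatments and 0.0462% to 0.0533% of each control library.

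**Figure D1:**
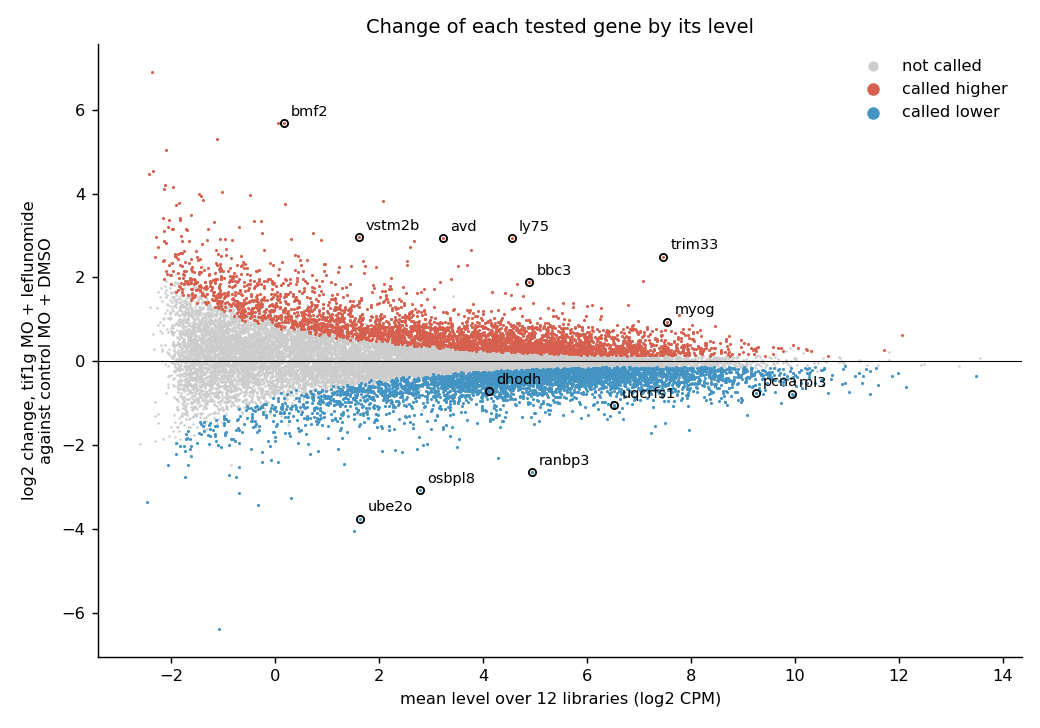
Log2 change between both treatments and control morpholino with DMSO (vertical axis) against the mean level of each of the 21400 genes tested over the 12 libraries in log2 CPM (horizontal axis), with called genes coloured by direction. Of the genes above a log2 CPM of 8, 356 fell and 87 rose, while most called genes below 0 rose.

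The largest rises are given for genes with a symbol and a mean log2 CPM of at least 1 over the 12 libraries. Larger rises below that level, such as that of bmf2 described with the cell death genes (5.68 ± 0.47), are not among them. The endocytic receptor gene ly75 was at 7.98, 8.06 and 8.94 CPM in the controls and at 61.4, 61.3 and 67.8 CPM with both treatments. Its treated libraries were all far above the controls, with a log2 change of 2.93 ± 0.08 (adjusted p = 1.45e-14). The gene avd, which encodes a biotin-binding avidin, was at 2.86, 4.51 and 3.28 CPM against 22.6, 25.7 and 33.1 CPM, a log2 change of 2.93 ± 0.20 (adjusted p = 1.81e-07). The gene vstm2b had the largest rise by this rule, from 0.572, 1.44 and 1.42 CPM to 8.50, 7.62 and 10.6 CPM, a log2 change of 2.96 ± 0.27 (adjusted p = 3.84e-07). The transporter gene slc16a12 (ENSDARG00000089885) rose by 2.87 ± 0.19 and the phosphoinositide phosphatase gene inpp4a (ENSDARG00000070995) by 2.73 ± 0.29. The remaining rises of the leading 12 ran from strc1 (2.66 ± 0.17) through spns3, the metabotropic glutamate receptor gene grm2 (ENSDARG00000007195), the glutathione peroxidase gene gpx3 (2.29 ± 0.22) and dnase1l4.2 to gad3 (2.27 ± 0.29), with trim33 among them. For ly75 and avd the morpholino alone gave changes of similar size. With the tif1g morpholino alone ly75 changed by 3.12 ± 0.08 and avd by 3.04 ± 0.20, and with leflunomide alone by -0.12 ± 0.09 and -0.35 ± 0.23. Of these 12 genes gad3 had the largest change under leflunomide, with 1.87 ± 0.29 under the morpholino and 1.40 ± 0.29 under leflunomide.

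The largest falls are given by the same rule. The ubiquitin-conjugating enzyme gene ube2o (ENSDARG00000100674) was at 11.5, 9.64 and 8.56 CPM in the controls and at 0.878, 0.586 and 0.735 CPM with both treatments. It fell by 3.75 ± 0.20 on the log2 scale (adjusted p = 2.05e-10), with no overlap. The lipid-transfer protein gene osbpl8 was at 21.1, 17.95 and 18.5 CPM against 2.56, 1.66 and 2.59 CPM and fell by 3.08 ± 0.16 (adjusted p = 1.10e-10). The nuclear export cofactor gene ranbp3 was at 72.4, 76.4 and 81.1 CPM against 11.7, 11.8 and 13.4 CPM and fell by 2.64 ± 0.08 (adjusted p = 1.83e-14). None of these 3 passed the test under leflunomide alone, with log2 changes of 0.32 ± 0.16, 0.05 ± 0.13 and 0.02 ± 0.07. Mitochondrial enzymes among the leading 12 were the complex I subunit gene ndufa2, at 11.6, 11.7 and 10.7 CPM against 1.69, 3.22 and 2.66 CPM, and acads of short-chain fatty acid oxidation, at 17.4, 14.8 and 12.9 CPM against 4.18, 3.45 and 3.68 CPM. They fell by 2.16 ± 0.18 and 2.00 ± 0.14. The pantothenate kinase gene pank1 (ENSDARG00000008192), which starts coenzyme A synthesis, fell by 2.04 ± 0.19. The others were map1b, the slow muscle myosin gene smyhc1, dclk1 (ENSDARG00000104664), the nuclear receptor gene rora, cyp1c1 and krt91, with log2 changes from -2.44 to -1.98. The call for smyhc1 was the least firm, from 19.3, 6.30 and 5.80 CPM to 1.90, 3.97 and 1.16 CPM (-2.15 ± 0.67, adjusted p = 0.0355), and it was lost in 12 of 28 alternative analyses.

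**Figure D2:**
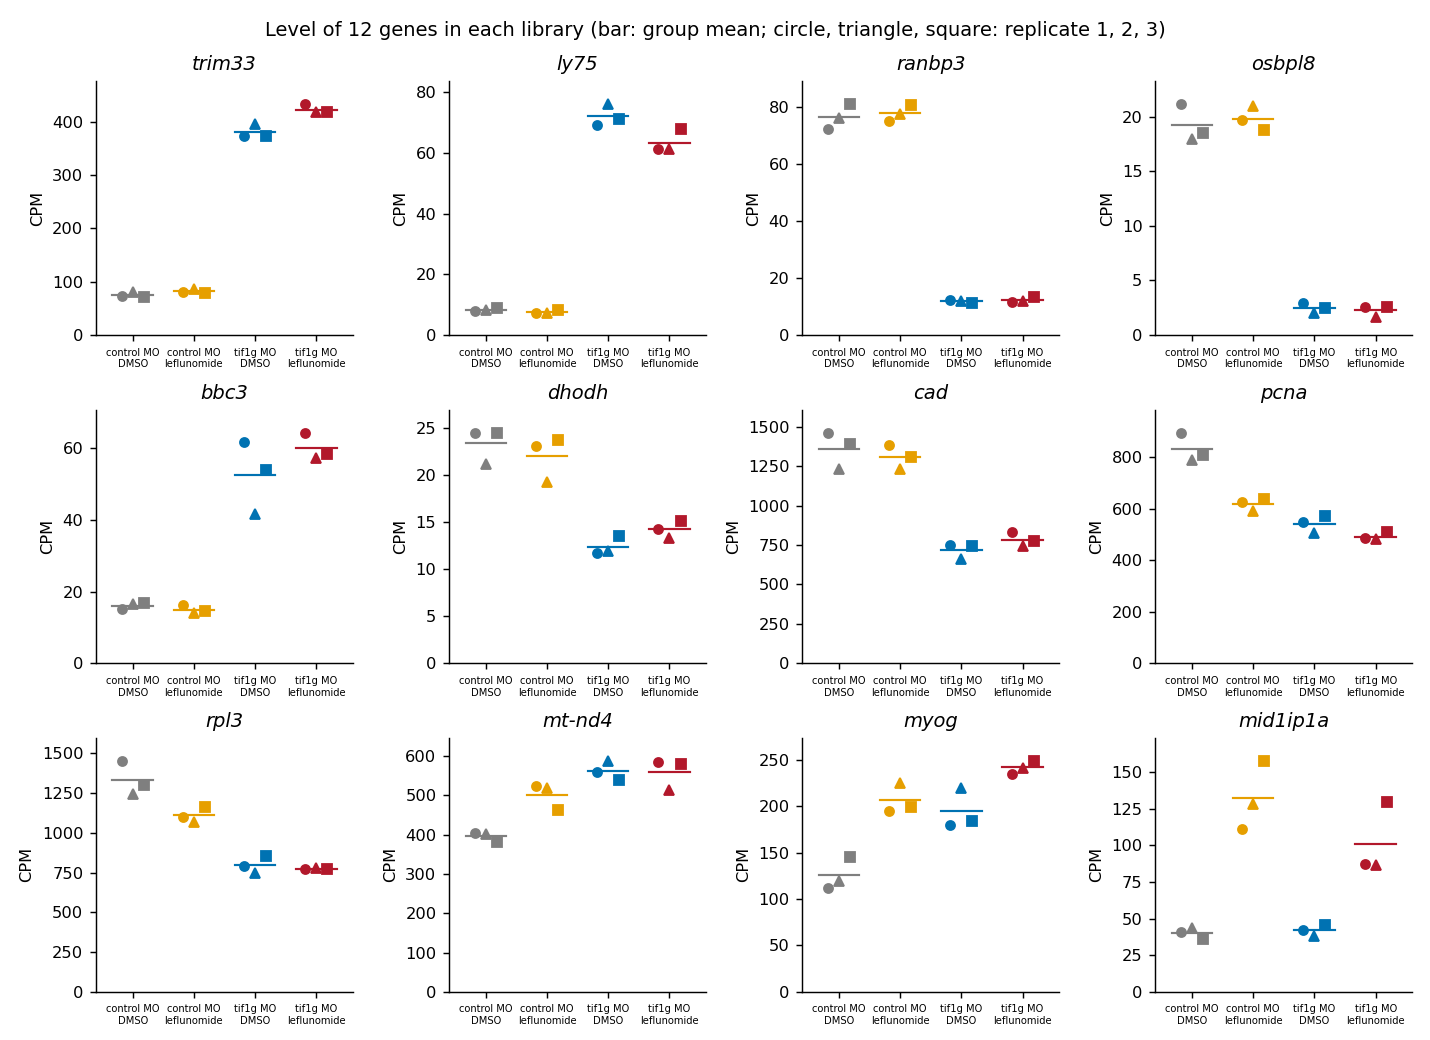
Level in CPM (vertical axes, starting at 0) of 12 genes in each of the 12 libraries, by group, with the bar at the group mean and a symbol for each replicate. The libraries of both treatments lay apart from the control DMSO libraries for trim33, ly75, ranbp3, osbpl8, bbc3, dhodh, cad, pcna, rpl3, mt-nd4, myog and mid1ip1a, and in mid1ip1a only the leflunomide groups were high.

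Transcripts for the making of pyrimidines fell and some for their salvage rose. All 5 tested genes of the de novo pathway fell, with a median log2 change of -0.74, against 36% of all genes called in either direction and a median of 0.01. The gene cad, whose protein carries the opening steps of the pathway, was at 1462, 1229 and 1391 CPM in the controls and at 834, 742 and 773 CPM with both treatments. The groups were apart, and cad fell by 0.80 ± 0.07 (adjusted p = 1.79e-07). The gene umps, which turns orotate into UMP, was at 153, 129 and 141 CPM against 81.5, 84.5 and 87.0 CPM and fell by 0.74 ± 0.06 (adjusted p = 4.75e-08). CTP synthase was listed under 2 identifiers with the symbol ctps1, ENSDARG00000030700 with a log2 change of -0.60 ± 0.05 and ENSDARG00000098386 with -1.23 ± 0.26. The single treatments divided these genes. The log2 change of cad was -0.92 ± 0.07 with the morpholino and -0.06 ± 0.07 with leflunomide, and that of dhodh was -0.91 ± 0.10 and -0.09 ± 0.10. For umps the values were -0.52 ± 0.06 and -0.49 ± 0.06.

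Of 8 genes that supply deoxynucleotides, 6 fell and none rose, where 18.7% of all genes fell and 17.3% rose. The ribonucleotide reductase subunit gene rrm2 (ENSDARG00000020711) was at 151, 156 and 127 CPM against 83.2, 86.5 and 75.1 CPM and fell by 0.83 ± 0.08 (adjusted p = 9.82e-07), and its partner rrm1 fell by 0.75. Thymidylate synthase, tyms, had a log2 change of -0.17 that did not pass the test. These 2 genes, like cda and upp1, were named after their values were seen. Among 16 genes of salvage and transport, 6 rose and 2 fell, to be read against the same shares. The falls were dctd (-0.27 ± 0.10, adjusted p = 0.0478) and uck2b (-0.25 ± 0.08, adjusted p = 0.0230), also named after their values were seen. The cytidine deaminase genes with the symbol cda rose by 1.79 (ENSDARG00000038199) and 2.13 (ENSDARG00000111188) and the nucleoside transporter gene slc29a1 (ENSDARG00000054447) by 0.91 ± 0.10. That slc29a1 entry was at 7.68, 7.60 and 8.29 CPM in the controls. The other, ENSDARG00000101289, was more abundant, at 306, 306 and 261 CPM. Its log2 change of -0.09 ± 0.07 did not pass the test (adjusted p = 0.332). The cda genes were low, at 0.236, 0.387 and 0.449 CPM against 1.26, 1.27 and 1.19 CPM (SE 0.36, adjusted p = 6.67e-04) and at 0.0673, 0.106 and 0.242 CPM against 0.422, 1.01 and 0.420 CPM (SE 0.58, adjusted p = 0.00744), without overlap in either. The uridine phosphorylase gene upp1 was at 0.269, 0.106 and 0 CPM against 0.246, 0.619 and 0.595 CPM, so that the groups overlapped, and its log2 change of 1.92 ± 0.72 was just past the threshold (adjusted p = 0.0458). The uridine-cytidine kinase gene uck2 was at 45.7, 46.8 and 41.9 CPM in the controls, at 70.4, 70.08 and 77.2 CPM with the morpholino alone, at 29.7, 33.04 and 30.8 CPM with leflunomide alone and at 58.2, 63.3 and 59.8 CPM with both. The treatments thus moved uck2 in opposite directions, and with both it rose by 0.43 ± 0.07 (adjusted p = 4.92e-05). Of 5 breakdown genes, dpys was called lower (-1.01 ± 0.39, adjusted p = 0.0488), a call lost in 14 of 28 alternatives. Over all 34 genes of pyrimidine metabolism, 14 fell and 6 rose. The rises were near the 17.3% of all genes that rose, while 18.7% of all genes fell. Without every library of replicate 1, 9 fell and 5 rose, without those of replicate 2, 9 fell and 3 rose, and without those of replicate 3, 14 fell and 4 rose.

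**Figure D3:**
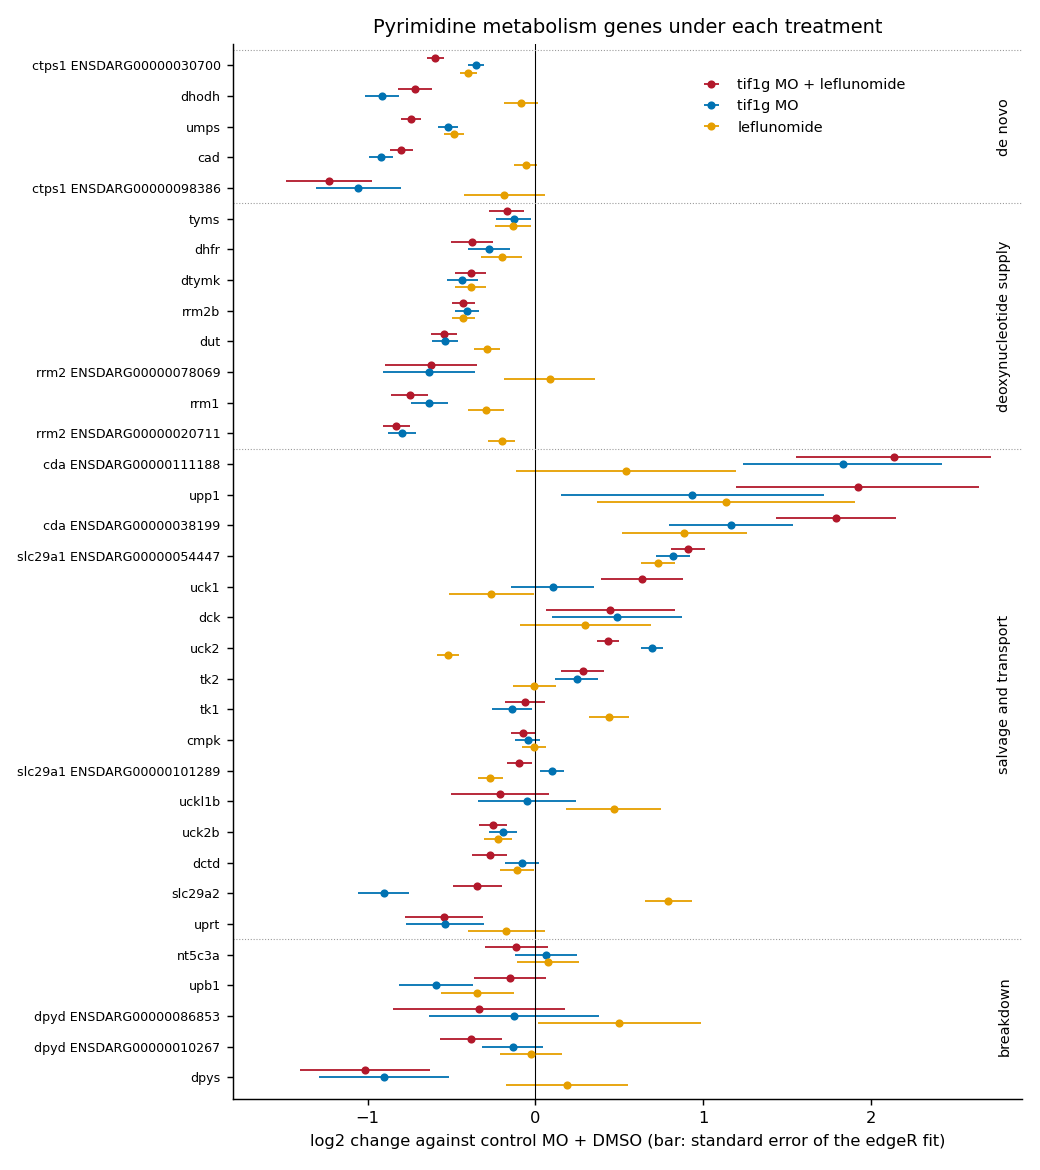
Log2 change against control morpholino with DMSO (horizontal axis, bars are standard errors of the edgeR fit) of the 34 tested genes of pyrimidine metabolism (vertical axis, grouped by role) under both treatments, the tif1g morpholino and leflunomide. The 5 de novo genes lie below 0 under both treatments, and cad and dhodh lie near 0 under leflunomide alone.

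Nuclear genes of oxidative phosphorylation fell across the complexes. Of 89 tested, 60 fell and 1 rose, with a median log2 change of -0.36, where 18.7% of all genes fell and 17.3% rose and their median was 0.01. The counts of the lists that follow are to be read against the same shares. Those shares varied with level, as 13.4% of genes below a mean log2 CPM of 0 were called and 63.2% above 8. Between 4 and 6, 1396 of 4762 genes fell and 1052 rose, and between 6 and 8, 971 of 2597 fell and 537 rose. Lists of abundant genes are therefore also to be read against these counts. No list was matched for level. In all lists, fits that leave out libraries have fewer replicates, so fewer calls there need not mean smaller changes. By complex, 24 of 37 genes of complex I fell, 1 of 4 of complex II, 10 of 11 of complex III, 12 of 19 of complex IV and 13 of 18 of ATP synthase. The Rieske protein gene uqcrfs1 of complex III was at 143, 133 and 134 CPM in the controls and at 67.8, 68.9 and 61.7 CPM with both treatments. It fell by 1.05 ± 0.06 (adjusted p = 4.88e-10), and uqcrq of the same complex fell by 1.12 ± 0.09. The cytochrome oxidase subunit gene cox7c was at 86.4, 85.0 and 81.5 CPM against 51.4, 51.0 and 49.9 CPM, and the cytochrome c gene cycsb at 199.7, 209 and 205 CPM against 112, 131 and 115 CPM. They fell by 0.73 ± 0.06 and 0.78 ± 0.06. Summed over the list, these transcripts took 4064 to 4620 CPM in the control libraries and 3152 to 3257 CPM with both treatments. Without every library of replicate 1, 39 fell.

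The mRNAs encoded by the mitochondrial genome went the other way. Of 13 tested, 8 rose and none fell, with a median log2 change of 0.29. The complex I subunit gene mt-nd4 was at 405, 402 and 380.0 CPM in the controls and at 585, 514 and 579 CPM with both treatments. Every treated library was above every control, and the log2 change was 0.50 ± 0.06 (adjusted p = 4.30e-06). The ATP synthase subunit gene mt-atp6 rose by 0.42 ± 0.05 and mt-nd5 by 0.30 ± 0.05. Their sum was 8017 to 8886 CPM in the controls and 9128 to 11020 CPM with both treatments.

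Citric acid cycle genes followed the nuclear respiratory genes, with 13 of 24 lower and 2 higher. Fumarase listed as fh (ENSDARG00000109774) rose by 0.75 ± 0.07, from 63.0, 64.3 and 69.5 CPM to 114, 109.9 and 106 CPM. Mitochondrial ribosomal protein genes were lower in 32 of 75 cases and higher in 2, with a median of -0.24. The strongest member was mrps9, at 31.8, 29.0 and 30.0 CPM against 12.7, 11.3 and 12.3 CPM (-1.33 ± 0.08, adjusted p = 1.39e-09). Of 14 genes of coenzyme Q synthesis, 2 rose and 2 fell, with a median of -0.04 that turned positive with library totals, when 4 rose and 1 fell. None rose and 1 fell without every library of replicate 1, or of replicate 3.

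Cytosolic ribosomal protein genes were lower in 61 of 82 cases and higher in 1, with a median log2 change of -0.24. Of the large subunit, 38 of 46 fell, and of the small subunit 23 of 36. The gene rpl3 was at 1452, 1246 and 1303 CPM in the controls and at 774, 778 and 773 CPM with both treatments, a log2 change of -0.78 ± 0.06 (adjusted p = 1.75e-08). The 3 treated libraries were close together and all below the controls. The single rise was rps27l, by 0.58, named after its values were seen. The count of called genes in this list depended on the scaling and on the libraries, while its median stayed below 0. With library totals 29 fell and 2 rose, with a median of -0.116. Without every library of replicate 1, 2 or 3, 36, 61 and 39 fell, with medians of -0.19, -0.292 and -0.224. The summed level was 35170 to 41490 CPM in the controls and 30550 to 31860 CPM with both treatments.

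Genes of ribosome assembly fell less uniformly, with 29 of 62 lower and 6 higher. The assembly GTPase gene gnl2 was at 158, 149.6 and 135 CPM against 88.6, 79.3 and 76.7 CPM and fell by 0.85 ± 0.06 (adjusted p = 1.79e-08). The endonuclease gene nob1, which trims the small-subunit RNA, went from 97.3, 90.1 and 89.1 CPM to 159.9, 151 and 163 CPM and rose by 0.78 ± 0.07 (adjusted p = 8.54e-08). With library totals the list held 19 genes lower and 17 higher.

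Genes of DNA replication and cell division fell in 36 of 48 cases and rose in 1, with a median of -0.33. The replication clamp gene pcna was at 896, 788 and 810.4 CPM against 486, 483 and 509 CPM, with no overlap, and fell by 0.76 ± 0.06 (adjusted p = 2.32e-08). The helicase subunit gene mcm5 was at 587, 514 and 560.3 CPM against 347, 340.5 and 373 CPM, and the topoisomerase gene top2a at 577, 500.2 and 555 CPM against 344, 339 and 374 CPM. They fell by 0.65 ± 0.07 and 0.63 ± 0.07. Purine synthesis genes were lower in 11 of 17 cases and higher in none, with atic, the enzyme of the closing steps of the de novo pathway, falling by 0.54 ± 0.06. With library totals 7 of the 17 fell. Of 15 genes of serine and one-carbon metabolism 7 fell, among them the serine synthesis gene phgdh, from 67.7, 58.6 and 64.6 CPM to 30.4, 33.6 and 32.8 CPM (-0.98 ± 0.07, adjusted p = 4.29e-09).

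Of 29 glycolysis genes 4 rose and 5 fell, so that 31% were called against 36% of all genes. With library totals 7 rose and 4 fell, and without every library of replicate 1, 2 or 3 the rises were 1, 2 and 3 and the falls 3, 4 and 5. The gene hk1, a hexokinase, fell by 1.05 ± 0.11, and gapdh rose by 0.43 ± 0.06, from 98.6, 92.8 and 92.8 CPM to 122, 129.5 and 133 CPM. Chaperone and heat shock genes were lower in 10 of 27 cases and higher in 1. The abundant chaperone hspa8 (ENSDARG00000068992) went from 6094, 5407 and 5584 CPM to 3618, 3659 and 3846 CPM and fell by 0.62 ± 0.05 (adjusted p = 2.41e-08). With library totals, or without every library of replicate 2, 6 of these 27 genes fell.

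Among Bcl-2 family genes and caspases, 7 of 25 rose and 5 fell. The largest changes were in genes of BH3-only proteins, which promote cell death by binding other members of the family. The gene bbc3 was at 15.0, 16.5 and 16.8 CPM in the controls and at 64.4, 57.2 and 58.4 CPM with both treatments, a log2 change of 1.90 ± 0.12 (adjusted p = 8.70e-09). The gene bmf2 went from 0.236, 0.0704 and 0.0345 CPM to 6.39, 6.22 and 5.71 CPM (5.68 ± 0.47, adjusted p = 1.75e-07). In each the treated libraries were all above the controls. Both rose with the morpholino alone, by 1.70 ± 0.12 and 5.40 ± 0.48.

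**Figure D4:**
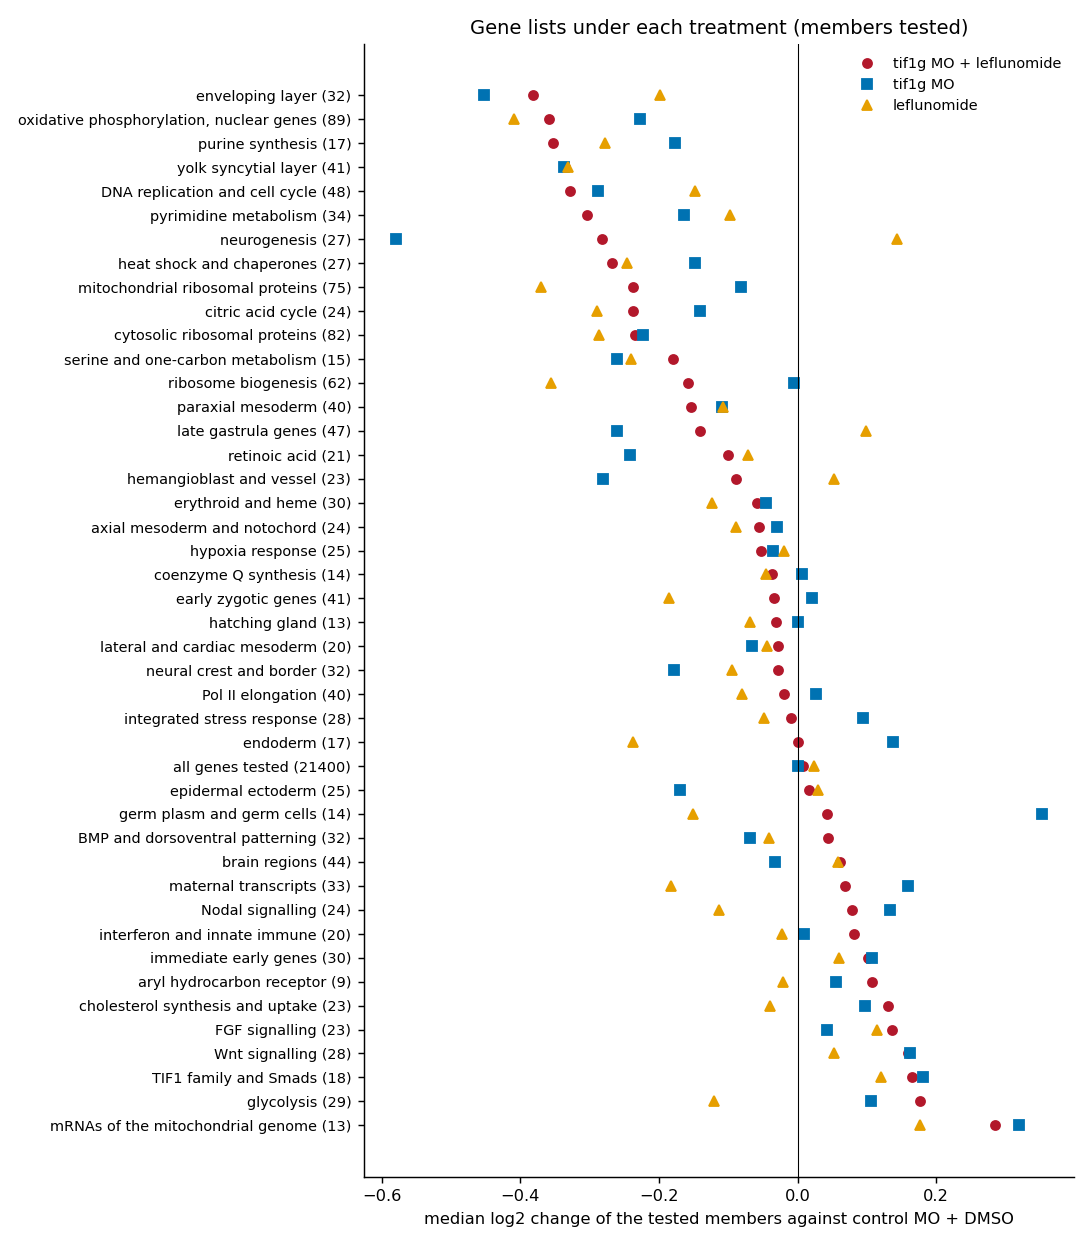
Median log2 change against control morpholino with DMSO (horizontal axis) of the tested members of each gene list (vertical axis, number tested in brackets) under both treatments, the tif1g morpholino and leflunomide. The enveloping layer, oxidative phosphorylation and purine lists lie lowest under both treatments, and mRNAs of the mitochondrial genome highest.

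Genes of the extraembryonic and surface layers were lower. In the yolk syncytial layer list 24 of 41 genes fell and 5 rose, and in the enveloping layer list 16 of 32 fell and 4 rose, with medians of -0.34 and -0.38. The yolk lipoprotein gene apobb.1 was at 4110.2, 3524 and 4077 CPM in the controls and at 2147, 2345 and 2271 CPM with both treatments, a log2 change of -0.79 ± 0.07 (adjusted p = 6.34e-07). The enveloping layer gene evpla, for an envoplakin of cell junctions, was at 572, 622 and 594 CPM against 376, 346 and 361 CPM and fell by 0.72 ± 0.05 (adjusted p = 1.43e-08), and anxa1b fell by 0.96 ± 0.07. The claudin gene cldne rose by 0.55 ± 0.05. The yolk syncytial marker hnf4a also rose, by 0.50 ± 0.10. Summed over their lists the enveloping layer took 13440 to 14670 CPM in the controls and 11790 to 11960 CPM with both treatments. The part of cell number in these changes was not tested.

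In the mesoderm and neural plate the changes were smaller and mixed. Of 40 paraxial mesoderm genes, 14 fell and 4 rose, a count that became 5 lower and 6 higher with library totals and was 8 or 9 lower without any 1 of replicate 1 of control morpholino with DMSO and replicates 2 and 3 of both treatments. The muscle regulator gene myog was at 112, 119.6 and 146 CPM in the controls and at 235, 242 and 249 CPM with both treatments and rose by 0.94 ± 0.10 (adjusted p = 5.03e-06). The earlier regulator gene myf5 was at 58.0, 55.4 and 53.2 CPM against 39.6, 39.7 and 42.6 CPM and fell by 0.45 ± 0.07 (adjusted p = 3.19e-05). These 2 members of one family thus moved in opposite directions. Among 44 genes of brain regions, 8 rose and 11 fell, 43.2% called against 36% of all genes. The balance turned with library totals, to 14 higher and 8 lower, and without every library of replicate 1, 2 or 3 the rises were 8, 8 and 5 and the falls 6, 8 and 7. The eye field gene rx3 fell by 0.91 ± 0.10 and pax6 (ENSDARG00000045936) rose by 0.59 ± 0.06. Of 27 neurogenesis genes 9 fell and 2 rose, led by the tubulin gene tubb5, from 61.4, 53.4 and 52.6 CPM to 25.0, 26.0 and 31.3 CPM (-1.02 ± 0.09). Without every library of replicate 3, 3 of them fell. The neural crest gene foxd3 fell by 0.72 ± 0.15, 1 of 5 falls and 1 rise among 32 genes of that list, a count of 4 and 4 with library totals. Genes that rise late in gastrulation were lower in 14 of 47 cases and higher in 5, with the matrix gene fn1 (ENSDARG00000006526) at 638, 476 and 507 CPM against 298, 305 and 276 CPM. With library totals 9 of the 47 fell and 7 rose, and without every library of replicate 3, 8 fell and 4 rose.

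Signalling lists differed in direction. Of 23 FGF genes 7 rose and 1 fell, 34.8% called against 36% of all genes. The rises included feedback inhibitors of the pathway: spry4 was at 139, 135 and 141 CPM against 191, 180.0 and 176 CPM (0.40 ± 0.06, adjusted p = 2.48e-05), spred1 rose by 0.78 ± 0.08 and spry1 by 0.78 ± 0.10. The FGF ligand gene fgf8 (ENSDARG00000003399) was called lower (adjusted p = 1.80e-04). Its log2 change in the fit with the replicate block was -0.35 ± 0.06. Immediate early genes were higher in 11 of 30 cases and lower in 1, with the AP-1 gene fosl1 going from 2.05, 2.25 and 2.55 CPM to 6.39, 7.45 and 6.30 CPM (1.55 ± 0.23, adjusted p = 3.46e-05). Of 28 Wnt genes 9 rose and 4 fell: the co-receptor gene lrp5 rose by 0.50 ± 0.06 and the receptor gene fzd10 fell by 0.58 ± 0.07. In the TIF1 family and Smad list, 7 of 18 rose and 1 fell, a count in which trim33 is included. The Smad partner genes skil (0.48 ± 0.10), smad7 (0.37 ± 0.09) and smad2 (0.24 ± 0.06) all rose. Without every library of replicate 1, or of replicate 3, 3 and 4 of the 18 rose, and with library totals 12 did, as did 12 of the 23 FGF genes. Of 24 Nodal genes 4 rose and 4 fell, 33.3% called against 36% of all genes. With library totals 7 rose and 2 fell, and without every library of replicate 3, 3 rose and 1 fell. The ligand gene ndr2 went from 9.12, 8.94 and 8.80 CPM to between 18.9 and 20.6 CPM (1.15 ± 0.10, adjusted p = 1.52e-07). Among 32 BMP genes, 6 rose and 7 fell, 40.6% called, with log2 changes of 0.33 ± 0.07 for bmp4 and -2.35 ± 0.39 for bmp7. The gene bmp7 did not meet the limits on level and direction set for the largest falls, and 27 of the 28 alternatives tested it. Without every library of replicate 1, 3 of the BMP genes rose and 6 fell, and without those of replicate 3, 4 rose and 4 fell.

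Genes for transcription elongation by RNA polymerase II, the process linked to Tif1γ in blood, changed in both directions, with 12 of 40 higher and 13 lower, where 17.3% and 18.7% of all genes were. The shares over all genes do not take the level of this list into account. Its rises numbered 7, 9 and 5 without every library of replicate 1, 2 or 3, with 13 falls each time. The median of -0.02 became 0.10 with library totals. The positive elongation factor gene ccnt2 (ENSDARG00000036510) was at 222, 234 and 219 CPM in the controls and at 378, 380.2 and 372 CPM with both treatments, and it rose by 0.74 ± 0.05 (adjusted p = 2.55e-09). The gene nelfcd, for a subunit of the negative elongation factor, was at 68.0, 62.1 and 64.7 CPM against 40.9, 38.9 and 44.4 CPM and fell by 0.65 ± 0.08 (adjusted p = 2.59e-06). The histone chaperone gene supt16h fell by 0.55 ± 0.06. In the hemangioblast and vessel list 2 of 23 rose and 4 fell, 26.1% called against 36% of all genes, and with the replicate block 8 fell. The gene lcp1, which marks myeloid cells at later stages, was at 181, 186 and 178 CPM against 99.5, 108 and 115 CPM (-0.76 ± 0.07). The reads of lcp1 in whole tailbud embryos were not assigned to a cell type. The vessel receptor gene kdrl fell by 0.57 ± 0.16, and gata2 rose by 0.51 ± 0.08. In the erythroid and heme list 5 of 30 rose and 7 fell, 40% called. With library totals 7 rose and 5 fell, and without every library of replicate 1, 2 or 3 the rises were 2, 1 and 3 and the falls 3, 4 and 3. Among its members were nfe2, rising by 0.59 ± 0.12 and the globin gene hbae3, which went from 1.04, 0.598 and 0.794 CPM in the controls to 0.211, 0.163 and 0.350 CPM (-1.74 ± 0.48, adjusted p = 0.00816). The medians of both blood lists, -0.09 and -0.06, changed sign with library totals.

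The other gene lists are given by their counts. Of 28 genes of the integrated stress response 8 rose and 9 fell, of 41 early zygotic genes 6 and 9, of 24 axial mesoderm genes 6 and 5, and of 25 epidermis genes 5 and 4. Of 33 maternal transcripts 4 rose and 2 fell, a count that became 10 and 1 with library totals. Retinoic acid genes were lower in 6 of 21 cases and higher in 1, hatching gland genes lower in 5 of 13 and higher in 2, and hypoxia genes lower in 4 of 25 and higher in 3. Of 23 cholesterol genes 3 rose and 2 fell, of 20 interferon genes 2 and 3, of 20 lateral mesoderm genes 2 and 2, of 17 endoderm genes 2 and 3, of 14 germ cell genes 3 and 1, and of 9 aryl hydrocarbon receptor genes 2 and 2. Shares called ran from 18.2% of the maternal to 60.7% of the stress response list. With library totals the retinoic acid list became 4 higher and 3 lower, the axial list 9 and 2 and the early zygotic list 8 and 5. Without every library of replicate 1, 2 or 3 the falls numbered 5, 3 and 5 in the early zygotic list, 2, 4 and 2 in the axial list and 4, 6 and 2 in the hatching gland list.

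The change under both treatments can be set beside those of the single treatments, which share the control DMSO libraries with it. The morpholino alone changed 7012 genes, 32.8% of those tested, and leflunomide alone 4695, 21.9%. The direct comparison of both treatments with the morpholino alone shows what the drug added in knockdown embryos. There, 132 genes differed in the unpaired fit, 0.617% of those tested. Of these, 41 were higher (0.192%) and 91 lower (0.425%), and 1 of them reached 2-fold in that fit. At an unadjusted p under 0.05 there were 2981. That 1 gene was mid1ip1a, a regulator of lipid synthesis, at 87.5, 86.4 and 129.5 CPM with both treatments and 40.8, 43.8 and 35.9 CPM in the untreated controls. It was higher than with the morpholino alone by 1.26 ± 0.18 (adjusted p = 0.0315), and leflunomide alone raised it by 1.72 ± 0.18. The other genes of the leading rises were znf385a, fam168a, klf7 (ENSDARG00000043821), hsd17b12 and ftr86, by 0.67 to 1.00. Of these, fam168a, hsd17b12 and ftr86 moved opposite ways under the single treatments, by -1.69 ± 0.14, -0.32 ± 0.10 and -1.08 ± 0.13 with the morpholino and by 0.74 ± 0.13, 0.52 ± 0.10 and 0.80 ± 0.13 with leflunomide. The leading falls were zic5 (-0.77 ± 0.16), bcl2l13 (-0.55 ± 0.12), the mitochondrial ribosomal protein gene mrpl28 (-0.48 ± 0.09), the ATP synthase assembly gene atpaf2 (-0.48 ± 0.10), naf1 of box H/ACA ribonucleoprotein assembly (-0.46 ± 0.09) and the chaperone gene hspa4 (ENSDARG00000004754, -0.45 ± 0.06). For mrpl28, atpaf2 and naf1 the log2 change was 0.06 ± 0.09, -0.00 ± 0.10 and -0.07 ± 0.09 with the morpholino and -0.47 ± 0.09, -0.46 ± 0.10 and -0.53 ± 0.09 with leflunomide.

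Pairing the libraries raised this count. With the replicate number as a block, 1518 genes differed between both treatments and the morpholino alone, 7.09% of those tested, with 578 higher (2.7%) and 940 lower (4.39%). The ribosome assembly list stood at 33 of 62 lower and none higher in the blocked fit, against 8 lower without the block, with a blocked median of -0.17. In blocked fits that left out every library of replicate 1, 2 or 3, 16, 23 and 13 of the 62 were lower. In the list of nuclear respiratory genes 15 of 89 were lower, and among mitochondrial ribosomal proteins 12 of 75, with none higher in either. Those 15 became 2, 10 and 1 without every library of replicate 1, 2 or 3, and 4 with the block and library totals. The small-subunit processome gene utp4, chosen after its values were seen, is an example of the fall from the morpholino alone to both treatments. The gene utp4 was at 108, 98 and 96 CPM in the controls, 119.8, 118 and 121 CPM with the morpholino, 76.5, 68.7 and 76.2 CPM with leflunomide and 94.9, 97.3 and 93.9 CPM with both. Against the untreated controls the whole list was mixed with the morpholino (19 higher, 14 lower, median -0.005). With both treatments the list was lower (29 lower, 6 higher, median -0.158), unlike utp4. For utp4 the blocked difference between both treatments and the morpholino was -0.33 ± 0.05 (adjusted p = 1.44e-04), while both treatments and the untreated controls differed by -0.08. The RNA polymerase I subunit gene polr1b (-0.25 ± 0.05) and nucleolin, ncl (-0.22 ± 0.04), chosen in the same way, were also lower.

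Against leflunomide alone, the addition of the tif1g morpholino changed 5094 genes, 23.8% of those tested, with 2564 higher (12%) and 2530 lower (11.8%). The leading rises among genes with a symbol and a mean log2 CPM of at least 1 were vstm2b (3.37 ± 0.28), avd (3.28 ± 0.21), ly75 (3.05 ± 0.08), the muscarinic receptor gene chrm5 (ENSDARG00000069598, 2.78 ± 0.29), inpp4a (ENSDARG00000070995, 2.66 ± 0.29) and slc16a12 (ENSDARG00000089885, 2.46 ± 0.18). The gene bmf2, below that level, was higher by 4.37 ± 0.41. The leading falls were ube2o (ENSDARG00000100674, -4.08 ± 0.20), osbpl8 (-3.13 ± 0.16), ranbp3 (-2.66 ± 0.08), smyhc1 (-2.47 ± 0.67), the midbrain-hindbrain gene en2 (ENSDARG00000026599, -2.35 ± 0.24) and cyp1c1 (-2.07 ± 0.55). In the ribosome assembly list 32 of 62 were higher than with leflunomide alone and 2 lower, the reverse of the direction against the untreated controls. Nuclear respiratory genes divided into 9 higher and 7 lower of 89, and cytosolic ribosomal proteins into 8 higher and 6 lower of 82. Cell cycle genes were lower in 21 of 48 cases and higher in none.

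The change under both treatments was then tested against the sum of the changes under the single treatments. In this contrast the control DMSO libraries enter the sum of the single changes once for each treatment and the combined change once. Without a block, edgeR's quasi-likelihood test called 0 of 21400 genes (0%), 2560 had an unadjusted p under 0.05, and DESeq2's Wald test called 291. With the replicate number as a block, 1067 genes departed from the sum, 4.99% of those tested, with 721 above it (3.37%) and 346 below it (1.62%). Among cytosolic ribosomal proteins 66 of 82 were above the sum and none below in the blocked fit. The median of their combined changes was -0.24 and that of the sums of their single changes -0.51. The gene rps20 shows the pattern: it was at 732, 619 and 624 CPM in the controls, 489, 433 and 479 CPM with the morpholino, 542, 531 and 530.5 CPM with leflunomide and 494, 492 and 464 CPM with both. All 3 treated groups were below the controls, and the group with both treatments was within the range of the other treated groups. The blocked departure was 0.35 ± 0.07 (adjusted p = 0.00286). Among nuclear respiratory genes 22 of 89 were above the sum and none below, and among ribosome assembly genes 21 of 62 and none below. The cox7c departure was 0.45 ± 0.08 (adjusted p = 0.00182), with 60.3, 56.2 and 56.8 CPM under the morpholino and 52.0, 52.0 and 58.9 CPM under leflunomide. Yolk syncytial layer genes were above the sum in 12 of 41 cases and below in none.

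The mitochondrially encoded mRNAs departed in the other direction, with 7 of 13 below the sum and none above in the blocked fit. The gene mt-nd4 was at 559, 587 and 539 CPM with the morpholino and 523, 518 and 462 CPM with leflunomide, and its blocked departure was -0.34 ± 0.07 (adjusted p = 0.00436). The number of departures called depended on the libraries that entered. With all libraries the median departure of cytosolic ribosomal proteins in the blocked fit was 0.27. Fits that leave out libraries have fewer replicates, so fewer calls there need not mean smaller departures. In blocked fits without every library of replicate 1, 2 or 3 the count over all genes was 35, 19 and 1173, and the count of cytosolic ribosomal proteins above the sum was 1, 1 and 66 with medians of 0.19, 0.25 and 0.35. The nuclear respiratory count was 0, 1 and 28, the count of mitochondrial mRNAs below the sum 0, 0 and 3, and the ribosome assembly count 0, 0 and 16. For yolk syncytial genes it was 1, 3 and 12. With the block and library totals, 24 cytosolic ribosomal proteins and 8 nuclear respiratory genes were above the sum, and over all genes the balance turned, with 244 above and 677 below.

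**Figure D5:**
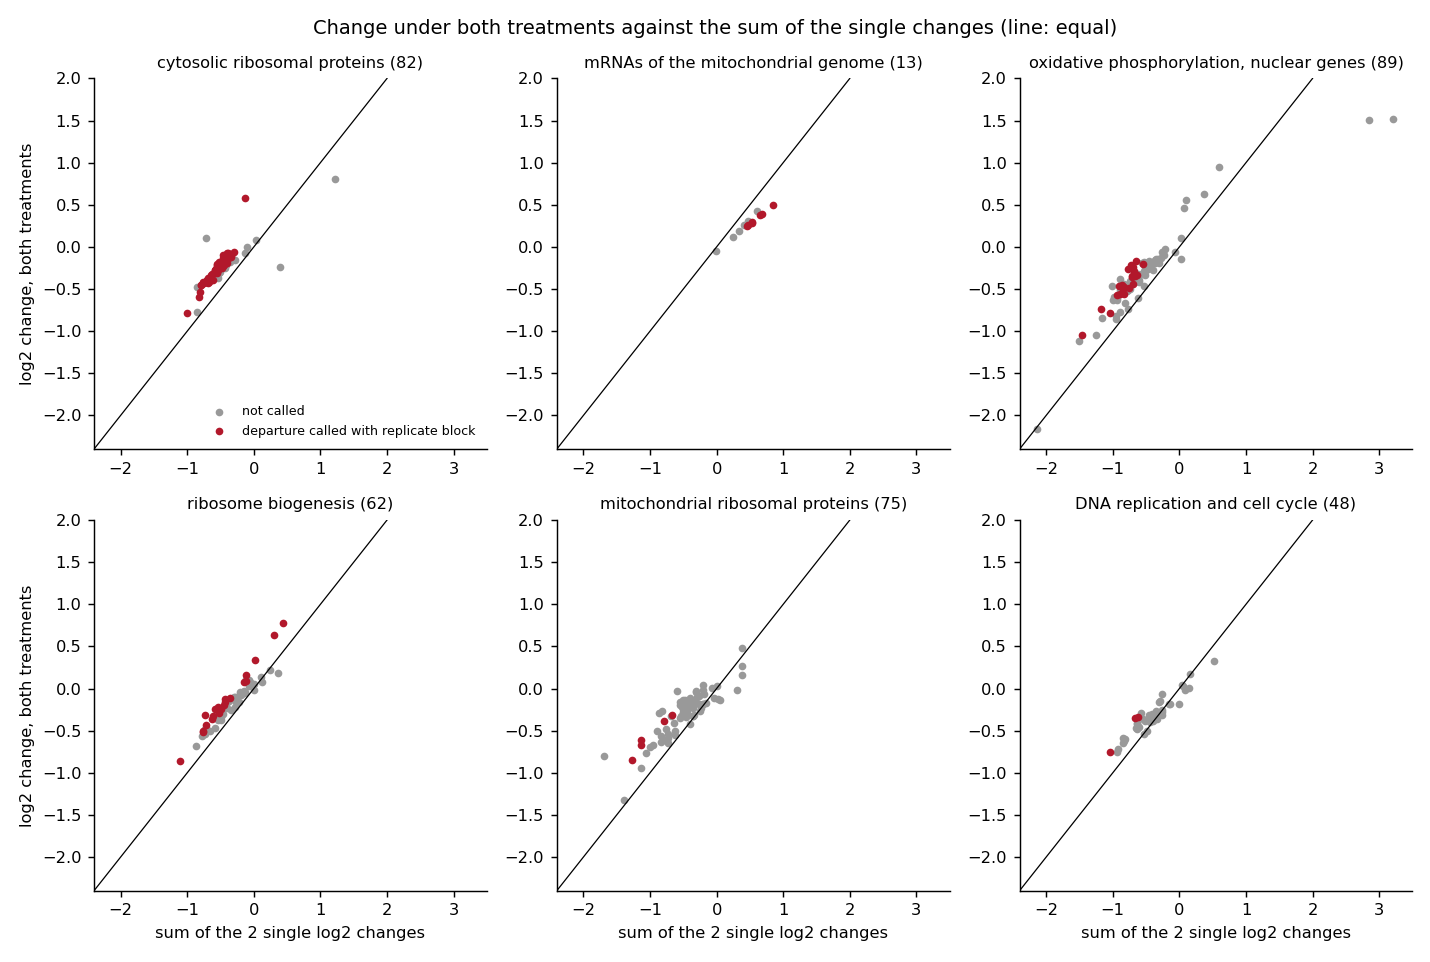
Log2 change under both treatments (vertical axis) against the sum of the single log2 changes (horizontal axis) for the members of 6 gene lists, all against control morpholino with DMSO, with the line marking equal values and red marking departures called with the replicate block. Most cytosolic ribosomal proteins lie above the line, with 66 of 82 called, a count that fell to 24 with library totals, and mitochondrial mRNAs lie below it, with 7 of 13 called.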

How the data were processed

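RNA-seq libraries were directional and made from rRNA-depleted total RNA, per the labels. The authors deposited whole-number read counts per Ensembl gene, not normalized. Per the submitters' processing notes, FastQC, cutadapt, TopHat2 2.0.11, Cufflinks 2.2.1, HTSeq and the GRCz11 assembly were used; the annotation release was, like the strand setting, not given in the sources used here. Overlapping and antisense genes, and paralogs that share reads, are therefore uncertain. Of 32520 identifiers, 30339 had a count and 29201 a symbol; 21400 passed edgeR's filterByExpr and were tested, 1523 of them without a symbol. Where several identifiers share a symbol, the identifier is given.

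The 12 libraries entered 1 edgeR 4.0.16 (R 4.3.3) quasi-likelihood fit of group means with TMM factors, and genes were called at a Benjamini-Hochberg adjusted p under 0.05 over all genes tested. Log2 changes carry the standard error of that fit, and CPM use the TMM-scaled totals. The common biological coefficient of variation, estimated by edgeR from the spread between replicates, was 0.113. Alternatives were DESeq2 1.42.0, its size factors, library totals, other filters, the 6 libraries alone, left-out libraries and a replicate block. Replicate pairs differed beyond counting noise (chi-square per degree of freedom 7.09 to 15.0), so none was a copy of another. Separate libraries made from 1 pool of embryos could also differ in this way, so this does not show that the pools were separate. The series text says that each clutch was divided over drug and DMSO, although no label equates a replicate number with a clutch. Over 14821 genes, deviations from group means correlated at 0.276 to 0.498 between libraries of the same number and at -0.346 to -0.0289 between numbers. Deviations within a group cancel out for each gene, so the negative values between numbers follow from the positive ones and are no separate evidence. On the values within numbers, the numbers were taken to pair the libraries in the fits with a replicate block. The main fit did not use this pairing, and values not marked as blocked come from unpaired fits.

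Named genes were trim33, dhodh, gata1a and tal1, the 12 largest rises and falls (mean log2 CPM of at least 1, same direction in the 3 replicate numbers), the 6 largest each way against each single treatment, and up to 4 called members of each list, or 2 of each role, by smallest p. Members and lists were chosen with earlier results of these data known; lists were not tested as sets. Some genes, and a part of 1 list, are not reported here. The code was tested on simulated counts.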

Additional observations from a re-analysis of the deposited data

How the results depend on the processing

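The comparison of both treatments with control DMSO kept its scale: 7696 genes with DESeq2 size factors, 7831 with DESeq2's Wald test, 7381 without a filter on low counts and 9586 with the replicate block, with 7695 of the 7697 called in both that fit and the main one. Of the 7697, DESeq2's Wald test also called 7596, but scaling by library totals called only 6338. With library totals 2644 were lower, and 66.8% of the called genes were higher, against 48.0% in the main fit. The block with library totals gave 6441 higher. Leaving out libraries gave 5310 to 7705 called (2402 to 3671 higher, 2908 to 4034 lower). Of 204 named genes called, 170 held in every one of the 28 alternatives that tested them, and none reversed. Genes were named for large changes or small p in these same libraries, which favours calls that hold. Their share is therefore no independent check and does not stand for all called genes. Some of them, such as bmf2 and bmp7, were tested in 27. Leaving out every library of 1 number ended the calls of smyhc1, dpys, ftr86 and further named genes printed above. Without replicate 1 these others were smad7, cyp1c1 and hbae3 (adjusted p = 0.0694, 0.14 and 0.116). Without replicate 2 they were map1b, hsd17b12, kdrl, tbxta and smad2 (0.0536, 0.0775, 0.0652, 0.0592 and at most 0.069, smad2 also without replicate 1). Without replicate 3 it was foxd3 (0.0839). The calls of smyhc1 and dpys were lost without replicate 1, 2 or 3. That of ftr86 was lost in 7 alternatives, among them those without every library of replicate 1 or 2. With the block tal1 and bcl2l13 were gained, and it changed no other call of a named gene. Against tif1g DMSO (132), library totals gave 66 (15 lower), DESeq2's Wald test 559 (171 higher, 388 lower), the replicate block 1518 (578 and 940), the block with DESeq2 size factors 1518 (562 and 956) and with library totals 1302 (892 and 410). Blocked fits without every library of replicate 1, 2 and 3 gave 457 (169 higher, 288 lower), 619 (222, 397) and 750 (377, 373). Unblocked, leaving out libraries gave 0 to 208 called (0 to 57 higher, 0 to 151 lower): 0 without replicate 1 or 2 of both treatments or replicate 3 of tif1g DMSO, 8 and 2 without replicates 1 and 2 of tif1g DMSO, 27 without replicate 3 of both treatments, 67 without replicate 3 of control DMSO, 81 and 39 without replicates 1 and 2 of control leflunomide, and 208 without replicate 1 of control DMSO. Against control leflunomide, leaving out gave 3006 to 5289 (1503 to 2676 higher, 1503 to 2613 lower). Departure from the sum (0) gave 3 with library totals, all lower, 1 with no filter, lower, 291 with DESeq2's Wald test (192 and 99), 1067 with the replicate block (721 and 346), 1068 with its DESeq2 size factors (730 and 338) and 921 with its library totals (244 and 677), and 0 with libraries left out. Blocked fits without replicate 1, 2 and 3 gave 35 (17 higher, 18 lower), 19 (17, 2) and 1173 (802, 371). The blocks with other scalings or without a number were chosen after seeing the data. The causes were not tested. Depth limits the low genes: below a mean log2 CPM of 0 the median standard error was 0.501.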
